A study of Caenorhabditis elegans with 6 samples.

Results

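The genes rde-11, sid-1 and B0564.2 were followed through small RNA sequencing of Caenorhabditis elegans mutants. They are 3 of the 42402 loci in the deposited tables and were taken by gene name. rde-11 and sid-1 are the genes of the series title, which speaks of raised small RNAs in meg-3 meg-4 mutants, and B0564.2 is the next gene downstream of rde-11. The choice of all 3 was made with their levels in these data known, so the tests below describe the size of the differences against the replicate spread and are not independent evidence.

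Whole worms at the young mother stage had been grown at 20 °C on HT115 bacteria with the L4440 vector, after synchronization by starvation. There were 2 libraries of the single mutant hrde-1(tm1200), 2 of an outcrossed double mutant meg-3(ax3055) meg-4(ax3052) from strain JH3745, and 2 of a strain with all 3 of these alleles, called the triple strain below. RNA had been treated with a 5' polyphosphatase, which lets secondary small RNAs with a 5' triphosphate enter the library. The wild type N2 enters through the fold changes of the authors' deposited tables alone. The labels do not say whether the 2 libraries of a strain came from separate cultures, so p-values measure the spread between these libraries.

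RNA interference (RNAi) in worms starts from double-stranded RNA, which is cut into primary small RNAs. RNA-dependent RNA polymerases then copy the targeted messenger RNA into many secondary small RNAs, which Argonaute proteins carry. SID-1 is a membrane channel through which cells import double-stranded RNA, and RDE-11 is a RING finger protein that works with RDE-10 to amplify secondary small RNAs. HRDE-1, an Argonaute of the germ line, takes secondary small RNAs into the nucleus, where they silence genes over generations. MEG-3 and MEG-4 are disordered proteins that stabilize P granules, the RNA-rich condensates of the germ line. No role is given here to B0564.2.

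The counts recovered from the deposited values came to between 2384147 and 6780320 reads per library, with the fewest in triple strain replicate 2. The meg genes matched the labels: the 4 libraries labelled as meg-3 meg-4 mutants held 0 to 3 reads at meg-3 and 0 at meg-4, a count that allows up to 3, against 52 and 22 at meg-3 and 48 and 39 at meg-4 in hrde-1. Reads at the hrde-1 locus, 633 to 4138 per library, check nothing, since the labels do not say which part the allele removes. miRNAs took 18.2% and 19.5% of the reads in hrde-1, and between 28.6% and 32.1% in the other 4 libraries. The mir-35 family members of oocytes and embryos, mir-35 to mir-42, together took between 0.521% and 1.32%, and the lowest and the highest of these shares were the 2 meg-3 meg-4 libraries. Of these 8 loci, 0 were called in the 3 comparisons of strains by limma, edgeR or DESeq2, and 0 had an unadjusted p under 0.05. The miRNAs let-7 and lin-4 of late larval and adult soma were both called higher in the triple strain than in hrde-1, by limma and DESeq2 but not by edgeR. In meg-3 meg-4 over hrde-1, limma called let-7 higher and DESeq2 both. With libraries scaled to their totals, limma called only let-7 in this comparison (0.81 on the log2 scale, limma adjusted p = 0.0182). Neither was then called in the triple strain over hrde-1. With libraries scaled to their miRNA reads none of these differences was called. let-7 and lin-4 are themselves miRNAs, so that scaling takes out any shift shared by miRNAs and cannot check these differences. The authors' deposited table for the triple strain against N2 calls 4 of the 8 mir-35 family loci higher, and both let-7 and lin-4. There 8.77% of the loci with an adjusted p were called higher, and the median of miRNA loci was 1.06. For hrde-1 against N2 it was 1 of the 8 and neither let-7 nor lin-4, where 15.9% of such loci were called. Reads at 6 vitellogenin loci, yolk genes of the intestine, came to 0.315% in meg-3 meg-4 replicate 2 and to at most 0.0288% in the others, and the rises and falls of the 3 genes described below were also called by limma without that library. In whole worms, fewer cells of a type and less small RNA per cell cannot be told apart.

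Small RNAs at all 3 genes were several times higher in meg-3 meg-4 than in hrde-1 and the triple strain, whose order depends on the scaling. The levels that follow are normalised read counts (RPM, reads per unit of library size) after the 6 libraries were scaled together. The 3 genes together took 0.0937% and 0.103% of all reads in the hrde-1 libraries. Their share was 0.122% and 0.133% in the triple strain and 0.675% and 0.878% in meg-3 meg-4. No library of meg-3 meg-4 overlapped a library of another strain at any of the 3 genes. How many of all loci separate in this way was not counted, here or for the ranges given below.

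**Figure D1:**
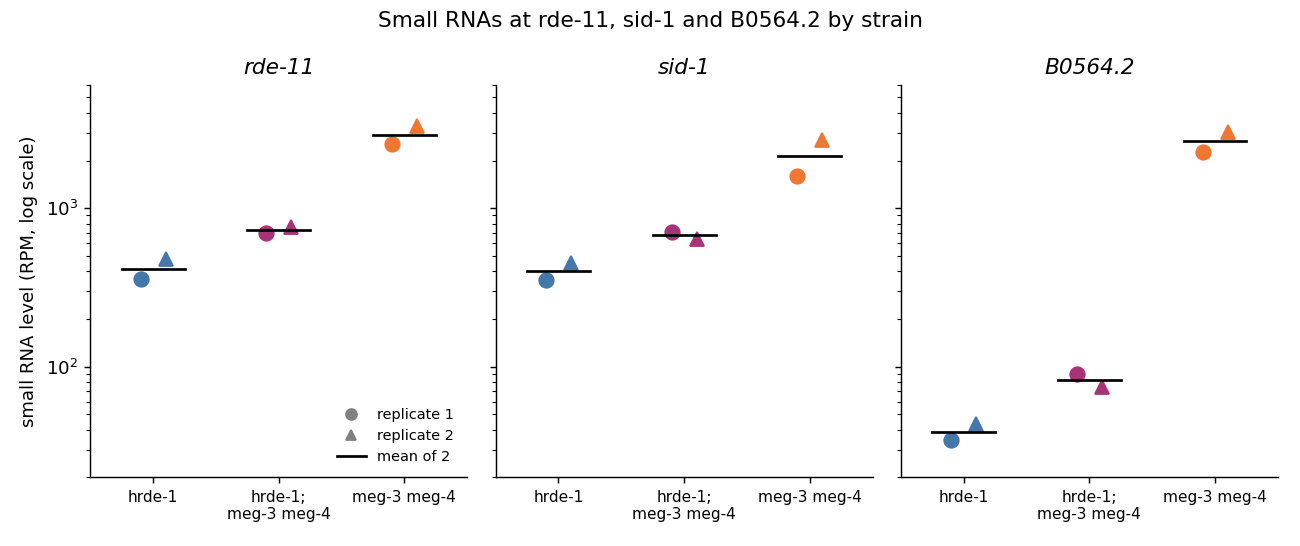
Small RNA level (RPM, log scale) at rde-11, sid-1 and B0564.2 in each library, with circles for replicate 1, triangles for replicate 2 and bars for the mean of 2 libraries of a strain. At B0564.2 both meg-3 meg-4 libraries lie at 2279 RPM or above and the other 4 at 89.5 RPM or below, a wider gap than at rde-11 or sid-1.

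At rde-11 (B0564.11, WBGene00023421, chromosome IV) the hrde-1 libraries held 356.2 and 476.5 RPM. The triple strain libraries held 694.3 and 765.4 RPM, and those of meg-3 meg-4 held 2526 and 3304 RPM. These levels rest on 1633 reads or more per library, the fewest in triple strain replicate 2. The 3 strains thus formed 3 ranges that did not overlap, and replicates of a strain differed by at most 1.34 times. In meg-3 meg-4, rde-11 ranked 12 among protein-coding genes by reads in both libraries, and in the other 4 libraries it ranked between 112 and 213.

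The rise from hrde-1 to meg-3 meg-4 at rde-11 was 2.81 on the log2 scale (SE 0.32, limma adjusted p = 2.28e-05), and 1.88 with libraries scaled to their miRNA reads (limma adjusted p = 0.000386). The strains hrde-1 and meg-3 meg-4 differ at hrde-1 and at both meg genes. The parts of these alleles in a difference between them cannot be told apart, here and below. At an adjusted p under 0.05 over all loci, 16.4% of the 6469 loci tested were called in this comparison, and 7.02% were called higher. The triple strain was also set against meg-3 meg-4, here on the scaled signal that the authors deposited for both. There rde-11 fell by 2.05 on the log2 scale (SE 0.30, limma adjusted p = 0.000267), and of the 6067 loci tested there 7.75% were called and 3.44% were called lower. The median over all loci was −0.15 in the first comparison and −0.11 in the second, small beside both differences at rde-11.

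At sid-1 (C04F5.1, WBGene00004795, chromosome V) the hrde-1 libraries held 350.9 and 450.4 RPM. The triple strain libraries held 711.1 and 641.2 RPM, and the meg-3 meg-4 libraries 1603 and 2686 RPM. The 3 ranges again did not overlap. The replicates of meg-3 meg-4 lay further apart at sid-1, by 1.68 times, than at rde-11, by 1.31 times. sid-1 ranked 37 and 19 among protein-coding genes by reads in meg-3 meg-4, and between 130 and 216 in the other libraries.

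The rise from hrde-1 to meg-3 meg-4 at sid-1 was 2.38 on the log2 scale (SE 0.34, limma adjusted p = 0.000188), and 1.46 with miRNA scaling (limma adjusted p = 0.00293). From meg-3 meg-4 to the triple strain, sid-1 fell by 1.68 on the log2 scale (SE 0.33, limma adjusted p = 0.00328). This fall was the smallest of the 3 genes and came to a log2 difference of −1.27 without meg-3 meg-4 replicate 2 and −2.09 without replicate 1, both still called by limma. Without triple strain replicate 2 its limma adjusted p was 0.0468.

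B0564.2 (WBGene00007202, chromosome IV) had few small RNAs in the strains that lack hrde-1. The hrde-1 libraries held 34.3 and 43.3 RPM, from 236 and 211 reads, and the triple strain libraries held 89.5 and 75.0 RPM, from 495 and 160 reads. In meg-3 meg-4 the level was 2279 and 3030 RPM, from 13505 and 15089 reads. The gene thus moved from ranks between 822 and 2862 among protein-coding genes to ranks 18 and 15 in meg-3 meg-4.

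The rise from hrde-1 to meg-3 meg-4 at B0564.2 was 6.05 on the log2 scale (SE 0.34, limma adjusted p = 1.41e-07), a ratio of mean levels of 68.4. With miRNA scaling the rise was 5.14 (limma adjusted p = 1.14e-05) and the ratio 36.1. In the TMM scaling it was the third rise by size among the 6469 loci tested. From meg-3 meg-4 to the triple strain the gene fell by 5.05 on the log2 scale (SE 0.34, limma adjusted p = 2.12e-07), from a deposited signal of 2510 ± 583.8 to 74.2 ± 9.10 (SD, n = 2 each). This was the fifth fall by size among 6067 loci.

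The triple strain lay above hrde-1 at all 3 genes in this scaling, but 0 of the 3 differences passed the limma test. They were 1.07 on the log2 scale at B0564.2 (95% interval 0.33 to 1.80, limma adjusted p = 0.0686), 0.82 at rde-11 (0.13 to 1.51, limma adjusted p = 0.155) and 0.76 at sid-1 (0.02 to 1.51, limma adjusted p = 0.251). The intervals are those of a single gene, without adjustment for the 6469 loci, of which 10.3% were called and 4.37% were called higher. Both triple strain libraries lay above both hrde-1 libraries at each gene. All 3 differences had an unadjusted p under 0.05 with limma, edgeR called 0 of the 3, and DESeq2 called 1. The difference at B0564.2 was called by DESeq2 (adjusted p = 0.0217) and by limma on these 2 strains alone (adjusted p = 0.0136).

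This excess in the triple strain depends on the scaling, and the share of miRNA reads differs between the strains. With libraries scaled to their miRNA reads the differences turned to −0.03 at B0564.2, −0.30 at rde-11 and −0.36 at sid-1, and all loci together moved from a median of −0.18 to one of −1.27. B0564.2 then held 63.9 and 63.1 RPM in hrde-1 and 61.1 and 63.0 RPM in the triple strain, nearly equal levels with both triple strain libraries just below both hrde-1 libraries. Relative to the median of all loci, the 3 genes stood at 1.24 (B0564.2), 1.00 (rde-11) and 0.94 (sid-1) on the log2 scale in the TMM scaling, and at 1.23, 0.97 and 0.91 with miRNA scaling.

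Ratios of reads between genes of the same library need no scaling between libraries. For each read at rde-11 there were 0.0962 and 0.0909 reads at B0564.2 in hrde-1. The same ratio was 0.129 and 0.0980 in the triple strain, and 0.902 and 0.917 in meg-3 meg-4. Both meg-3 meg-4 libraries thus lay above the other 4, and the log2 ratio was lower in the triple strain than in meg-3 meg-4 by 3.01. An exact two-sided permutation test gave p = 0.333, the smallest p that 2 libraries against 2 allow.

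The ratio of rde-11 to sid-1 spanned a narrower range. It was 1.01 and 1.06 in hrde-1, whereas the triple strain had 0.976 and 1.19 and meg-3 meg-4 had 1.58 and 1.23. The log2 ratio was higher in meg-3 meg-4 than in the triple strain by 0.37 on average, with a spread of 0.25 (SD, n = 2) within meg-3 meg-4 (exact two-sided permutation p = 0.333). rde-11 and sid-1 are on different chromosomes, and B0564.2 lies next to rde-11.

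**Figure D2:**
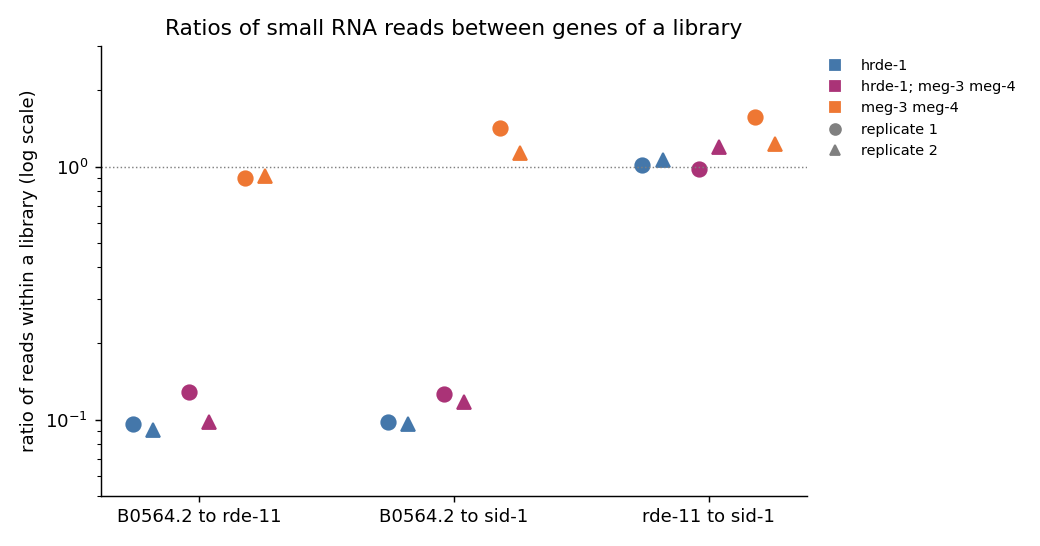
Ratio of reads between genes within each library (log scale), with strains in colour and replicates by symbol. B0564.2 holds at most 0.129 reads for each read at rde-11 or sid-1 in the strains that lack hrde-1 and at least 0.902 in meg-3 meg-4, and the ratio of rde-11 to sid-1 stays between 0.976 and 1.58.

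Per length of annotated exon, the order of the genes changed between strains. In RPM per kilobase of exon, the mean level in hrde-1 was 308.4 at rde-11, 151.0 at sid-1 and 51.3 at B0564.2. In meg-3 meg-4 B0564.2 was the highest with 3507 RPM per kilobase, above rde-11 with 2159 and sid-1 with 808.2. The annotated exon lengths of 1.35 kilobases for rde-11, 2.65 for sid-1 and 0.757 for B0564.2 come from a later genome build than the counts, and these levels are approximate for this reason.

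Against the wild type, the 3 genes differed by at most 0.70 on the log2 scale in the strains that lack hrde-1. By the authors' deposited table for hrde-1 against N2, the log2 fold change was −0.34 for B0564.2 (adjusted p = 0.559), −0.16 for rde-11 (adjusted p = 0.777) and −0.25 for sid-1 (adjusted p = 0.612). None of the 3 was called, and among the loci with an adjusted p in the authors' deposited table, 15.9% were called and 7.19% were called lower. By the authors' deposited table for the triple strain against N2, 2 of the 3 genes were called higher, B0564.2 with 0.70 (adjusted p = 0.0217) and rde-11 with 0.59 (adjusted p = 0.00475), and sid-1 stood at 0.44 (adjusted p = 0.0542). Of the loci with an adjusted p in that authors' deposited table, 18.8% were called and 8.77% were called higher. The median of miRNA loci in the authors' deposited table was 1.06 and that of all loci with an adjusted p −0.02, and the 3 genes stood between these values.

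No deposited table sets meg-3 meg-4 against N2. The fold change of the triple strain against N2 minus that against meg-3 meg-4, both from the authors' deposited table of each comparison, leaves 5.77 for meg-3 meg-4 over N2 at B0564.2, against 2.65 at rde-11 and 2.18 at sid-1, on the log2 scale. These are differences between tables that were scaled separately, with no error and no test. The authors' deposited table for the triple strain against meg-3 meg-4 gives −5.08 for B0564.2 (adjusted p = 1.86e-45), where 4.33% of loci with an adjusted p were called and 1.94% were called lower. At B0564.2 the hrde-1 mutant thus differed by −0.34 from the wild type, and the triple strain by −5.08 from meg-3 meg-4, by the authors' deposited tables. The sample titles name JH3745 and outcrossing for meg-3 meg-4 alone, so differences in strain history cannot be told apart from loss of hrde-1. A test between the −0.34 and the −5.08 would need the N2 libraries and was not made.

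**Figure D3:**
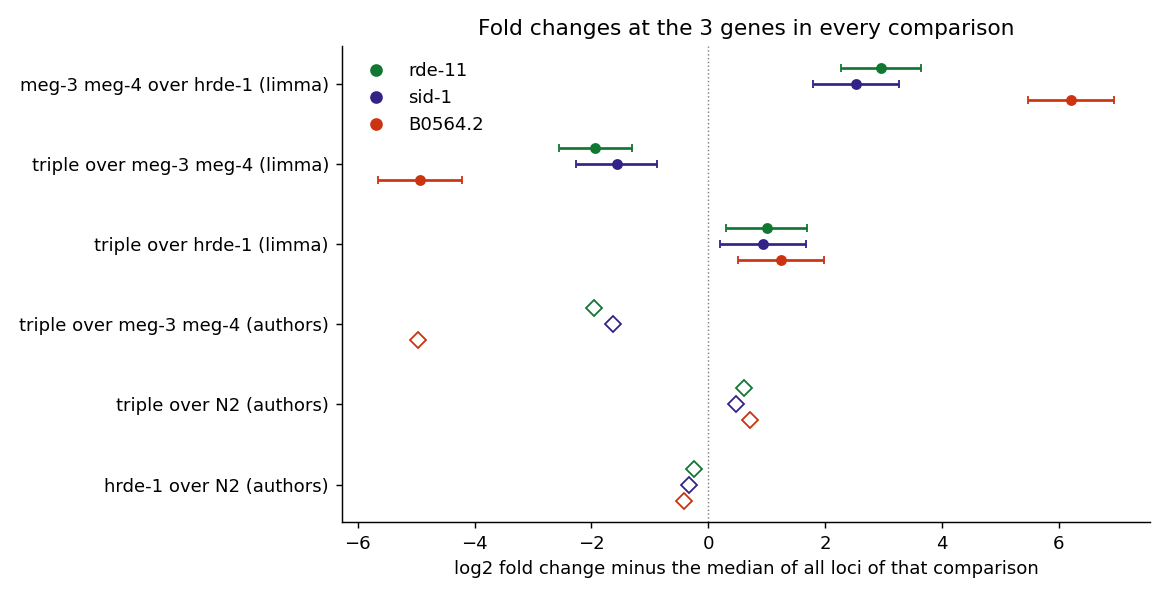
Log2 fold change minus the median of all loci of that comparison, at rde-11, sid-1 and B0564.2. Filled points are limma estimates with the 95% interval of a single gene, and open diamonds are values of the authors' deposited tables, which carry no interval. The 3 genes lie far from 0 in the comparisons with meg-3 meg-4 and within 1.24 of it in the others.

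Around rde-11 and B0564.2 only 1 other gene was measured, and it was not called in meg-3 meg-4 over hrde-1. In that comparison 7.02% of all loci were called higher. The clone B0564 holds 10 other loci in the tables, and 1 of them had a mean of at least 10. This is B0564.7 (later named fask-1, WBGene00007207), which lies just upstream of rde-11 on the same strand. It held 78.5 and 77.0 RPM in hrde-1, 73.4 and 80.2 RPM in the triple strain, and 84.2 and 80.1 RPM in meg-3 meg-4. These levels were close in all 6 libraries in the TMM scaling, and the log2 difference between meg-3 meg-4 and hrde-1 was 0.08 (SE 0.32, limma adjusted p = 0.926). With miRNA scaling B0564.7 was higher in hrde-1, with 146.4 and 112.1 RPM against 76.5 and 66.4 in meg-3 meg-4. The log2 difference was then −0.84 (limma adjusted p = 0.0586), opposite in direction to rde-11 and B0564.2, and the median of all loci was −1.06. From meg-3 meg-4 to the triple strain the difference was −0.16 (SE 0.34, limma adjusted p = 0.893).

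In hrde-1, B0564.2 held fewer reads than B0564.7, with 0.436 and 0.563 reads for each read there. In meg-3 meg-4 the ratio was 27.1 and 37.8, and in the triple strain 1.22 and 0.936. Upstream of B0564.7, the exosome subunit gene exos-4.1 held between 5.62 and 8.71 RPM and the small Tim protein gene tin-9.2 between 1.20 and 4.93 RPM, and the highest level of both was in hrde-1. exos-4.1 and tin-9.2 share exon sequence in the annotation, so reads between them are uncertain.

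Downstream, the bestrophin channel genes best-1 and best-2 overlap the span of B0564.2 on the opposite strand in the annotation. best-1 held between 1 and 7 reads per library and best-2 between 0 and 15, and the highest count of both was in meg-3 meg-4 replicate 2. With 15 reads at most, best-2 lies far under the 15089 reads at B0564.2 in the same library. best-1 shares 0 exon bases with B0564.2 and best-2 shares 3. The strand setting of the authors' counting was not given in the sources used here. Beyond these, unc-30 and the other loci of the clone held at most 3 reads in a library.

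On the clone of sid-1, C04F5, 9 other loci are listed and 1 had a mean of at least 10. C04F5.9, the neighbour of sid-1, held 33.7 and 48.1 RPM in hrde-1, 39.9 and 38.4 RPM in the triple strain, and 33.2 and 38.2 RPM in meg-3 meg-4. The ranges overlapped in the TMM scaling, and the log2 difference between meg-3 meg-4 and hrde-1 was −0.17 (SE 0.32, limma adjusted p = 0.828). With miRNA scaling they did not overlap, with 62.8 and 69.9 RPM in hrde-1 against 30.2 and 31.6 in meg-3 meg-4. C04F5.9 then fell by 1.08 on the log2 scale (limma adjusted p = 0.0279), while sid-1 rose. This fall was near the median of −1.06 over all loci, and 2936 of 6784 loci were called lower there. The authors' deposited table for the triple strain against N2 calls C04F5.9 lower (−0.66, adjusted p = 0.0490). C04F5.8 held between 4.52 and 16.4 RPM, with its highest level in hrde-1 replicate 1. The other 7 loci of this clone held at most 5 reads in a library.

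**Figure D4:**
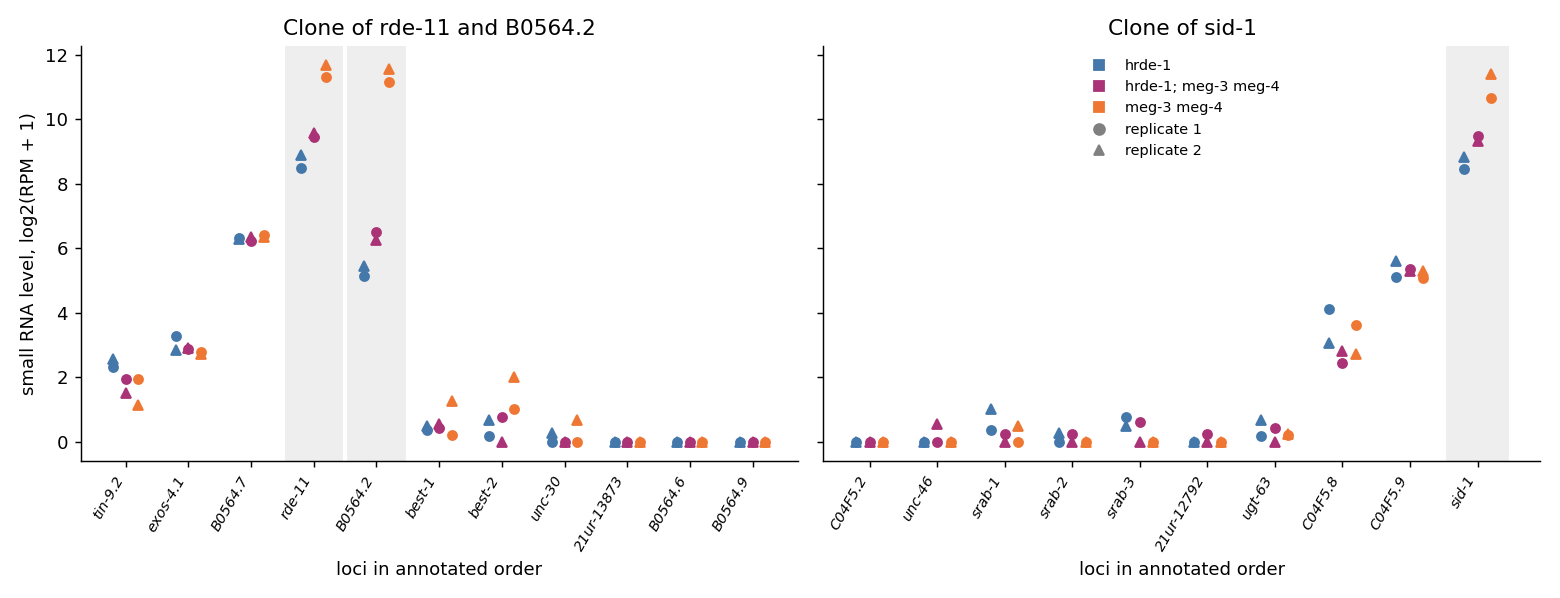
Small RNA level as log2(RPM + 1) in each library at the loci of the clone that holds rde-11 and B0564.2 (left) and of the clone that holds sid-1 (right), in annotated order and not to scale along the chromosome, with the 3 genes shaded. At the shaded genes meg-3 meg-4 lies above the other strains, and the order of hrde-1 and the triple strain depends on the scaling. At the neighbours B0564.7 and C04F5.9 the strains lie close together in the TMM scaling drawn. With miRNA scaling hrde-1 lies above the other strains at both neighbours. With miRNA scaling the median of all loci shifts the same way (log2 −1.06 for meg-3 meg-4 and −1.27 for the triple strain, each over hrde-1). B0564.5, which has no place in the annotation and held at most 2 reads, is not drawn.

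Other genes of the RNAi pathway were counted in 3 lists of systemic RNAi, of RNAi triggered by double-stranded RNA with its amplification, and of nuclear RNAi, which together hold 44 loci beside the genes above. In meg-3 meg-4 over hrde-1, 34 were measured, 1 rose and 0 fell with limma, where 7.02% of all loci were called higher and 9.38% lower. With libraries scaled to their miRNA reads, a setting tried for the lists after their values were seen, 1 of 35 rose and 13 fell. Of all 6784 loci tested there, 170 were called higher and 2936 lower, and the median of all loci was −1.06. The median log2 difference was 0.02 over 4 systemic RNAi genes, −0.15 over 23 genes of the second list and 0.04 over 9 nuclear RNAi genes, against −0.15 over all loci, in the TMM scaling. The gene that rose in both scalings was rrf-2, which encodes an RNA-dependent RNA polymerase. Its level was 54.6 and 87.5 RPM in hrde-1, 110.2 and 134.5 RPM in the triple strain, and 223.1 and 337.5 RPM in meg-3 meg-4, with a log2 difference of 1.97 between meg-3 meg-4 and hrde-1 (SE 0.37, limma adjusted p = 0.00164), or 1.06 with miRNA scaling (limma adjusted p = 0.0369). In the TMM scaling rrf-2 had 3 ranges that did not overlap, in the order seen at the 3 genes above. Against N2 it differed from them. The authors' deposited table for the triple strain against N2 calls rrf-2 lower (−0.89, adjusted p = 8.23e-05), and rde-11 and B0564.2 higher. There 18.8% of the loci with an adjusted p were called.

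In the triple strain over meg-3 meg-4, 0 of 33 measured list genes were called with limma, against 7.75% of all loci, 4 had an unadjusted p under 0.05 (hrde-1, nrde-2, rme-1 and rrf-2), and edgeR called 1 and DESeq2 called 2. The median log2 difference was −0.53 over the 4 systemic RNAi genes, −0.32 over 22 genes of the second list and −0.41 over the 9 nuclear RNAi genes, each below the −0.11 over all loci. Locus classes differed here: by the authors' deposited table the median was −0.19 over protein-coding loci and −0.10 over all loci with an adjusted p. rrf-2 stood at −1.23 (SE 0.36, limma adjusted p = 0.0521) and was called by both edgeR and DESeq2, and DESeq2 also called nrde-2. The authors' deposited table for this comparison calls rrf-2 lower (−1.27, adjusted p = 0.0168), alone among the list genes. In the triple strain over hrde-1, 0 of 34 were called with limma, edgeR or DESeq2, against 10.3% of all loci with limma, and rrf-2 alone had an unadjusted p under 0.05. Their medians were −0.45, −0.36 and −0.33 in the same order of lists, against −0.18 over all loci. With miRNA scaling 34 of 35 were called lower there, where 5084 of 6784 loci were. The authors' deposited table for hrde-1 against N2 calls rrf-2 lower with −1.62 (adjusted p = 4.68e-07), a table in which rde-11, sid-1 and B0564.2 were not called. Of the other list genes it calls sago-1 lower and drh-1, ppw-2, nrde-2 and set-32 higher, where 15.9% of the loci with an adjusted p were called. RDE-10, the partner of RDE-11, is encoded by a gene whose small RNAs held between 7.97 and 13.4 RPM in the 6 libraries, with the highest level in hrde-1 replicate 2. Its log2 difference between meg-3 meg-4 and hrde-1 was −0.32 (SE 0.37, limma adjusted p = 0.708) in the TMM scaling. With miRNA scaling it was −1.18 (limma adjusted p = 0.0226), where the median of all loci was −1.06.

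The loci with the profiles closest to those of the 3 genes were found by the distance between log2 levels centred on their own mean, over the 6 libraries and 6469 loci. This measure is a description, since all loci share the same libraries. Closest to rde-11 were F42G4.7 (distance 0.30), qdpr-1 (0.35), W04A8.2 (0.39), F41B5.1 (0.41) and the F-box gene fbxc-44 (0.50), all nearer than sid-1 (0.57). Closest to sid-1 were Y65B4A.7 (0.27), qdpr-1 (0.30), fbxc-44 (0.40), B0250.7 (0.42) and Y7A5A.1 (0.44), so qdpr-1 and fbxc-44 stood near both. qdpr-1, which encodes a quinoid dihydropteridine reductase, had mean levels of 303.7 ± 70.1 RPM in hrde-1, 561.7 ± 5.10 in the triple strain and 1817 ± 440.5 in meg-3 meg-4 (n = 2 each, ± SD).

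B0564.2 lay at a distance of 3.63 from rde-11 and 4.09 from sid-1. Loci nearer to it were ads-1 (0.98), K09B11.4 (1.26), C18H2.1 (later named lido-18, 1.28), H25P19.1 (1.39) and the body length gene lon-8 (1.54). ads-1, which encodes an enzyme of ether lipid synthesis, had mean levels of 23.8 ± 1.68 RPM in hrde-1, 70.6 ± 2.23 in the triple strain and 1245 ± 55.8 in meg-3 meg-4 (n = 2 each, ± SD). H25P19.1 had 88.7, 90.8 and 2415 RPM in the same order of strains. At these 5 loci, as at B0564.2, levels were low in both strains that lack hrde-1 and high in meg-3 meg-4, which is the pattern by which they were found.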

How the data were processed

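Small RNA libraries of 3 strains, with 2 libraries each, were analysed from 3 deposited tables. The authors used cutadapt, Bowtie2, HTSeq and DESeq2 with build ce10, per the submitters' processing notes, with no version, strand setting or rule for multi-mapping reads given. The deposited library values are a scaled signal in 2 tables and, in the table for the triple strain and N2, RPM with equal column sums. Each deposited table also gives the authors' log2 fold change and adjusted p-value. The 4 per-library columns of N2, which have no sample in the labels, were not used.

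The deposited values were whole multiples of 1 read (tolerance 0.001 read) in 100% of loci above 0, which gave the counts. Counts carry no molecular identifiers, so limits on counts of 0 cover counting error only. Replicates differed by more than sampling noise (chi-square per degree of freedom 8.36 to 23.2).

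For meg-3 meg-4 and the triple strain the test used the deposited signal of their shared table. The other comparisons used counts of the 6 libraries scaled together with edgeR 4.0.16 (TMM, trimmed mean of M values). Values of loci whose mean reached 10 were taken as log2(value + 1), a scale that understates changes at low levels. They were fitted with limma 3.58.1 with a trend. The method had been tried on simulated counts with a single spread setting for all loci and no shift in miRNA share between strains. That trial does not cover the replicate spread or the scaling differences of these data. A locus was called where its Benjamini-Hochberg adjusted p, over all loci tested, was under 0.05. Counts were also fitted with edgeR's quasi-likelihood test and DESeq2 1.42.0, and other pseudocounts, filters, scalings, groupings, a replicate block and leaving out each library were tried. Gene order, strand and exon length come from Ensembl release 115 on WBcel235, which is not the build of the counts, so coordinates are left out; it matched 41759 loci.

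The genes and lists were chosen with earlier results of these data known. Beside the 3 genes, the rule names called list members, clone loci whose mean reached 10, and for each gene the 5 loci of closest profile. rde-10, the list genes that were not called and the other clone loci were added after their values were seen.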

Additional observations from a re-analysis of the deposited data

How the results depend on the processing

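The rises from hrde-1 to meg-3 meg-4 and the falls from meg-3 meg-4 to the triple strain kept their direction and call at rde-11, sid-1 and B0564.2 in all 96 alternatives run. The log2 fall from meg-3 meg-4 to the triple strain ranged from −2.27 to −1.82 at rde-11, from −2.09 to −1.27 at sid-1 and from −5.29 to −4.81 at B0564.2. The log2 rise from hrde-1 to meg-3 meg-4 ranged from 1.88 to 3.02, from 1.46 to 2.75 and from 5.14 to 6.26 in the same order of genes, lowest with miRNA scaling. The triple strain over hrde-1 turned with scaling to miRNA reads to −0.30 (rde-11), −0.36 (sid-1) and −0.032 (B0564.2), without a call by limma. The difference at B0564.2 was called with a filter on a mean of at least 50 (1.07, limma adjusted p = 0.0400), with the 2 strains alone (1.07, limma adjusted p = 0.0136), with DESeq2 (1.24, adjusted p = 0.0217) and with the replicate block (1.07, limma adjusted p = 0.0314); the cause was not tested. The replicate numbers are not stated to pair libraries, and differences between replicates 1 and 2 correlated at −0.19, 0.56 and −0.11 between strains; the block changed no other call of the 3 genes.

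For meg-3 meg-4 against the triple strain, 470 loci were called, against 276 with a filter on a mean of at least 50 and 207 to 880 when each library was left out (228 and 207 without triple strain replicates 1 and 2, 700 and 880 without meg-3 meg-4 replicates 1 and 2). Between the triple strain and hrde-1 they numbered 665, against 405 with that filter, 5125 with miRNA scaling and 367 to 542 without each library (367 without hrde-1 replicate 1, 416 without triple strain replicate 1); 283 higher and 382 lower became 98 and 483 with scaling to library totals and 41 and 5084 with miRNA scaling. Between meg-3 meg-4 and hrde-1 they numbered 1061, against 566 with that filter and 3106 with miRNA scaling, and 732 to 1352 without each library; 454 higher and 607 lower became 170 and 2936 with miRNA scaling. Where a library was left out, limma assumed that the lone library of a strain varies like the others. Differences in within-library log2 ratios, triple strain minus meg-3 meg-4, ranged from −3.21 to −2.82 for B0564.2 to rde-11, from −3.55 to −3.21 for B0564.2 to sid-1 and from −0.55 to −0.19 for rde-11 to sid-1. With 2 libraries per strain, a p that missed the threshold does not show that levels were equal.

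For the lists and neighbours, scaling to library totals or to miRNA reads was tried after the data were seen. Of the RNAi list genes, limma called 0 between the triple strain and meg-3 meg-4, against 2 with either scaling, 0 between the triple strain and hrde-1, against 1 and 34, and 1 between meg-3 meg-4 and hrde-1, against 2 and 14. With library totals and with miRNA scaling the log2 difference turned to −0.10 and −0.056 at C04F5.9 and to −0.15 and −0.10 at let-7 (triple strain over meg-3 meg-4), and to −0.11 and −0.84 at B0564.7 (meg-3 meg-4 over hrde-1). With miRNA scaling alone it turned to −0.30 at rrf-2 and −0.025 at let-7 (triple strain over hrde-1) and to −0.0020 at lin-4 (meg-3 meg-4 over hrde-1). None of these turned values was called by limma.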
